A study of Homo sapiens with 8 samples.

Results

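The clustered protocadherins are cell-surface adhesion proteins of the cadherin superfamily, encoded side by side on the long arm of chromosome 5. They were taken here as the protein-coding genes whose GENCODE symbol starts with PCDHA, PCDHB, PCDHGA, PCDHGB or PCDHGC, which gave 53 genes of the 60725 listed in the count table. The alpha cluster holds 15 of them (chr5:140786136-141012347, plus strand of GRCh38), the beta cluster 16 (chr5:141051374-141249365) and the gamma cluster 22 (chr5:141330514-141512977). RNA-seq had measured polyadenylated RNA of HAP1 cells, a near-haploid human line derived from a chronic myeloid leukaemia, in a single clone (SC9) that stably expressed dCas9-KRAB. In this system, called CRISPRi, a guide RNA brings an inactive Cas9 and the KRAB repressor to a promoter. All libraries came from this clone 144 h after lentiviral delivery of a guide RNA. The groups were the NELFE knockdown (3 libraries), the NELFB knockdown (2 libraries) and a control guide RNA against ADAM22, plasmid pLB187 (3 libraries). The question addressed was how far expression of these genes differed once NELF, the negative elongation factor that holds RNA polymerase II near promoters, had been depleted.

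In the alpha and gamma clusters, each member has its own promoter and a large variable first exon that is spliced to constant exons shared by the whole cluster, whereas beta genes consist of a single large exon. In neurons each cell uses a small set of the promoters, apparently at random, and the resulting mixture of surface proteins marks the cell and lets its branches recognise and avoid each other. The last members of the alpha and gamma clusters, the C-type genes, are regulated differently and are used more uniformly. CTCF, cohesin and DNA methylation are known to act at the promoters, and most of these carry a conserved sequence element with the core CGCT.

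Reads that fall on constant exons belong to several genes at once and were not counted, so the counts describe the part of each gene that is its own. The median member had 3272 own exon bases in the alpha, 3538 in the beta and 2821 in the gamma cluster. Exon bases shared with other listed genes made up 49.5%, 5.3% and 43.8% (medians). PCDHA1 kept only 7 own bases in GENCODE v44, a later release than the v24 used for counting, and has no level per length. Counted reads per library were 24444185, 23119332 and 23913330 in the control, 23565963, 22777434 and 22037423 in the NELFE knockdown, and 23843603 and 23087766 in the NELFB knockdown. At this depth, 3 reads, taken as the detection floor, correspond to 0.12 to 0.139 CPM (reads scaled by TMM to a common library size), depending on the library.

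The guide RNA targets behaved as labelled. NELFE was 49.3 ± 1.24 CPM (SD, n = 3) in the control and 2.58 ± 0.341 CPM (SD, n = 3) where it was targeted (log2 fold change -4.26). NELFB was 75.4 ± 3.32 CPM (SD, n = 3) in the control and 2.92 ± 0.207 CPM (SD, n = 2) where it was targeted (log2 fold change -4.69). ADAM22, the target of the control guide RNA, had 257 to 342 reads in the control libraries and 642 to 1102 in the knockdown libraries. For ADAM22 itself, repression in the control and an effect of NELF depletion cannot be told apart, and no library without a guide RNA was analysed here.

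A pair of libraries stood apart from their groups. Over all genes, a chi-square statistic per gene was 17.1 and 29.4 between control 1 and the other control libraries, against 5.76 between control 2 and control 3. For NELFE 3 it was 21.1 and 21.4 against the other libraries of its group, which differed from each other by 4.25. Among the 28 members tested in the model of the 3 groups, NELFE 3 was the lowest NELFE library for 22 and the highest for 0, and control 3 was the lowest control library for 19. Counts of called members are therefore also given without control 1 and NELFE 3, a choice made after the data were seen.

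To show what the promoters of these genes share, the 90 bases upstream of the RefSeq start site are printed for members on which the comparisons below turn (GRCh38.p14, plus strand, 5′ to 3′). RefSeq promoters were at hand for 47 of the 53 members. The lines give the called members with the largest changes that had an entry (PCDHB9, PCDHB10, PCDHB12, PCDHB14 and PCDHB15) and the tested member of each cluster with the smallest change (PCDHAC2, PCDHB5 and PCDHGA5). PCDHA6, which had no read in any library, and PCDHGA10, the gamma gene with the most reads, were added after their values were seen. Capitals mark the letters GATGTCGCT (alpha), GTGGCGCT (beta) or GNGN followed by CGCTGT (gamma), and CGCT alone where these are absent.
PCDHA6: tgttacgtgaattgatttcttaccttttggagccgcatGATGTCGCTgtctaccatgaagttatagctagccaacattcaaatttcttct
PCDHAC2: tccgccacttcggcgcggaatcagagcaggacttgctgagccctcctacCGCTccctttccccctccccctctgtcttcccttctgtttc
PCDHB5: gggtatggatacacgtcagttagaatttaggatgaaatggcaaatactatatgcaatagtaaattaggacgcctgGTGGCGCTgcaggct
PCDHB9: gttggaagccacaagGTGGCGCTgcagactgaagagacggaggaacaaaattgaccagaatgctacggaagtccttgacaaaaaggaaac
PCDHB10: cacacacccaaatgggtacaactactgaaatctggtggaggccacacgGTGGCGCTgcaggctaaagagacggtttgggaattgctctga
PCDHB12: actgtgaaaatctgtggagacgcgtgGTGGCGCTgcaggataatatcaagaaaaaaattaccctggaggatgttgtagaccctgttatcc
PCDHB14: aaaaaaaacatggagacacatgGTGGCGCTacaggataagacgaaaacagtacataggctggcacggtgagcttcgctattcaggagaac
PCDHB15: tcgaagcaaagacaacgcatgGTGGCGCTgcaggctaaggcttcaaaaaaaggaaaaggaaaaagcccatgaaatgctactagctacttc
PCDHGA5: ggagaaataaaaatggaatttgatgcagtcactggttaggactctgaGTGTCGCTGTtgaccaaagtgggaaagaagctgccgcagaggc
PCDHGA10: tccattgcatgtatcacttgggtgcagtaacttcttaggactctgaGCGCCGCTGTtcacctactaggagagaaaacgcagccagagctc

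These windows lie at chr5:140827870-140827959 (PCDHA6), chr5:140966386-140966475 (PCDHAC2), chr5:141135116-141135205 (PCDHB5), chr5:141187071-141187160 (PCDHB9) and chr5:141192263-141192352 (PCDHB10). The others are at chr5:141208629-141208718 (PCDHB12), chr5:141223253-141223342 (PCDHB14), chr5:141245305-141245394 (PCDHB15), chr5:141364072-141364161 (PCDHGA5) and chr5:141412897-141412986 (PCDHGA10). The 3 letter strings were read from the promoters and searched on both strands, with N for any base, from 250 bases before to 50 bases after the start. All 3 contain CGCT. GATGTCGCT was found in 9 of 13 alpha promoters and 0.105% of all RefSeq promoters. GTGGCGCT occurred in 13 of 14 beta promoters and 1.15% of all promoters, and GNGN followed by CGCTGT in 17 of 20 gamma promoters and 1.48% of all promoters. The beta string also stands in PCDHB3, which was tested and not called, and in PCDHB5 it begins 15 bases before the start rather than 42 to 75 bases before it as in the other beta genes printed. On the coding strand, CGCT began between 80 and 37 bases before the start in 11 of 13 alpha, 11 of 14 beta and 18 of 20 gamma promoters, against 14.3% of all promoters. TATAAA, the TATA box, was in 3 alpha, 1 beta and 2 gamma promoters, against 11.5% of all. The core of the CTCF motif was in the PCDHB9 promoter and in 2.41% of all promoters, and in no other member with an entry.

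Reads were found for most members, but few were abundant in HAP1 cells. Of the 53 members, 35 had reads in all 8 libraries, 2 (PCDHA6 and PCDHB1) had no read in any library and a further 12 never exceeded 3 reads in a library. At least 10 reads in all 8 libraries were found for 18, and 26 had enough reads to be tested when the knockdowns were pooled (3 alpha, 13 beta and 10 gamma). In bulk RNA, a member used by few cells and a member used weakly by all cells cannot be told apart.

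Levels were compared between genes as CPM per kilobase of own exon sequence. In the alpha cluster, the C-type gene PCDHAC2 stood highest, at 1.66 ± 0.163 CPM per kilobase in the control (SD, n = 3), above PCDHAC1 at 0.319 ± 0.12 and PCDHA3 at 0.181 ± 0.0324. The other alpha genes with a level per length were at or under 0.0144 CPM per kilobase in the control. PCDHAC2 made up 75.2 ± 4.24% (SD, n = 3) of the control level summed over the alpha cluster. In the beta cluster, PCDHB5 was at 7.02 ± 0.823 CPM per kilobase, followed by PCDHB2 at 2.12 ± 0.224, PCDHB13 at 0.886 ± 0.107 and PCDHB14 at 0.702 ± 0.0718. Each of these 4 was above the next in every control library, whereas PCDHB8 (0.513 ± 0.0990), PCDHB3 and PCDHB16 followed without a clear order. The gamma cluster was led by the C-type gene PCDHGC3 at 1.88 ± 0.246 and PCDHGA10 at 1.86 ± 0.272 CPM per kilobase, which overlapped across the control libraries. The other C-type genes of that cluster, PCDHGC4 and PCDHGC5, had at most 3 reads in any library. Members of very different level lay side by side: PCDHB5 lies between PCDHB4 (0.0698 ± 0.0312) and PCDHB6 (0.132 ± 0.0589), and PCDHGA10 follows PCDHGB6 (0.0119 ± 0.0132). PCDHGA10 passed PCDHGC3 in the knockdowns, at 3.35 ± 0.519 against 2.25 ± 0.174 CPM per kilobase in the NELFE knockdown (n = 3) and 4.52 ± 0.153 against 3.18 ± 0.0898 in the NELFB knockdown (n = 2).

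The summed level of the beta and gamma clusters was higher in both knockdowns, while the alpha cluster differed less, with overlapping control and NELFE libraries. Beta transcripts summed to 37.6, 41.9 and 38.2 CPM in the control libraries, 63.5, 63.8 and 49.7 CPM in the NELFE libraries, and 68.4 and 65.1 CPM in the NELFB libraries. Gamma transcripts summed to 20.5, 23.6 and 19.4 CPM in the control, 38, 33.3 and 27.7 CPM in the NELFE knockdown, and 43.2 and 40.8 CPM in the NELFB knockdown. In both clusters every knockdown library was above every control library, with NELFE 3 closest to the control. Alpha transcripts summed to 7.61, 8.86 and 6.52 CPM in the control, 8.77, 9.33 and 6.51 CPM in the NELFE knockdown, and 9.75 and 10.4 CPM in the NELFB knockdown. The alpha sums of the NELFE and control libraries thus overlapped, with NELFE 3 and control 3 the lowest, and both NELFB libraries were above all control libraries. Over the 5 knockdown libraries, the mean sum was 1.17 times the control mean for alpha, 1.58 times for beta and 1.73 times for gamma. Sums over the members were not tested. Without the member with the highest CPM, the log2 ratio of the sum went from 0.22 to 0.46 for alpha (without PCDHAC2), from 0.66 to 0.99 for beta (without PCDHB5) and from 0.79 to 0.60 for gamma (without PCDHGA10). PCDHB5 accounted for 54.6 ± 4.51% (SD, n = 3) of the beta level per length in the control and 44.1 ± 4.81% (SD, n = 5) in the knockdowns.

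With both knockdowns pooled, as the study did, 15 of the 53 members were called higher and 0 lower (quasi-likelihood test of edgeR, p adjusted over all genes by the Benjamini-Hochberg method and under 0.05). Of all 16367 genes tested, 13.3% were called higher and 12.7% lower. The called members were 10 beta genes (PCDHB2, PCDHB5, PCDHB16 and PCDHB9 to PCDHB15) and 5 gamma genes (PCDHGA1, PCDHGB2, PCDHGA10, PCDHGB7 and PCDHGA11), with 0 of the 3 tested alpha genes. The median log2 fold change was 0.12 over the 3 tested alpha genes, 0.89 over the 13 tested beta genes and 0.82 over the 10 tested gamma genes, against 0.00 over all genes. Some called members, such as PCDHB9, PCDHB11 and PCDHB12, passed the filter on low counts through the knockdown libraries, and they enter the beta median. The fit was therefore repeated on every gene with a read. It called 16 of the 51 members with reads, against 6.29% of all genes called higher in that fit. All 5 knockdown libraries were above all 3 control libraries for 13 of the 26 tested members (9 beta, 4 gamma and 0 alpha), against 14.7% of all genes tested. This tally, too, includes members that could pass the filter through the knockdowns. Over all 53 members, tested or not, it was 15 (10 beta, 4 gamma and 1 alpha), whereas the 14.7% covers tested genes only.

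The count depended on single libraries. Without control 3 it was 6, without control 2 it was 8, and without any other single library it was between 10 and 16. The share of all genes called in either direction moved as well, from 26% to 17.8% without control 3, to 16% without control 2, and to between 18.7% and 31.4% in the other fits. Without both control 1 and NELFE 3 it was 17, with 19.8% of all genes then called higher, and 14 of the 15 members were among them. PCDHB10, PCDHB11, PCDHB13, PCDHB14, PCDHGA10 and PCDHGB7 were called in all 8 fits that left out 1 library. No member was called lower in any of these fits.

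**Figure D1:**
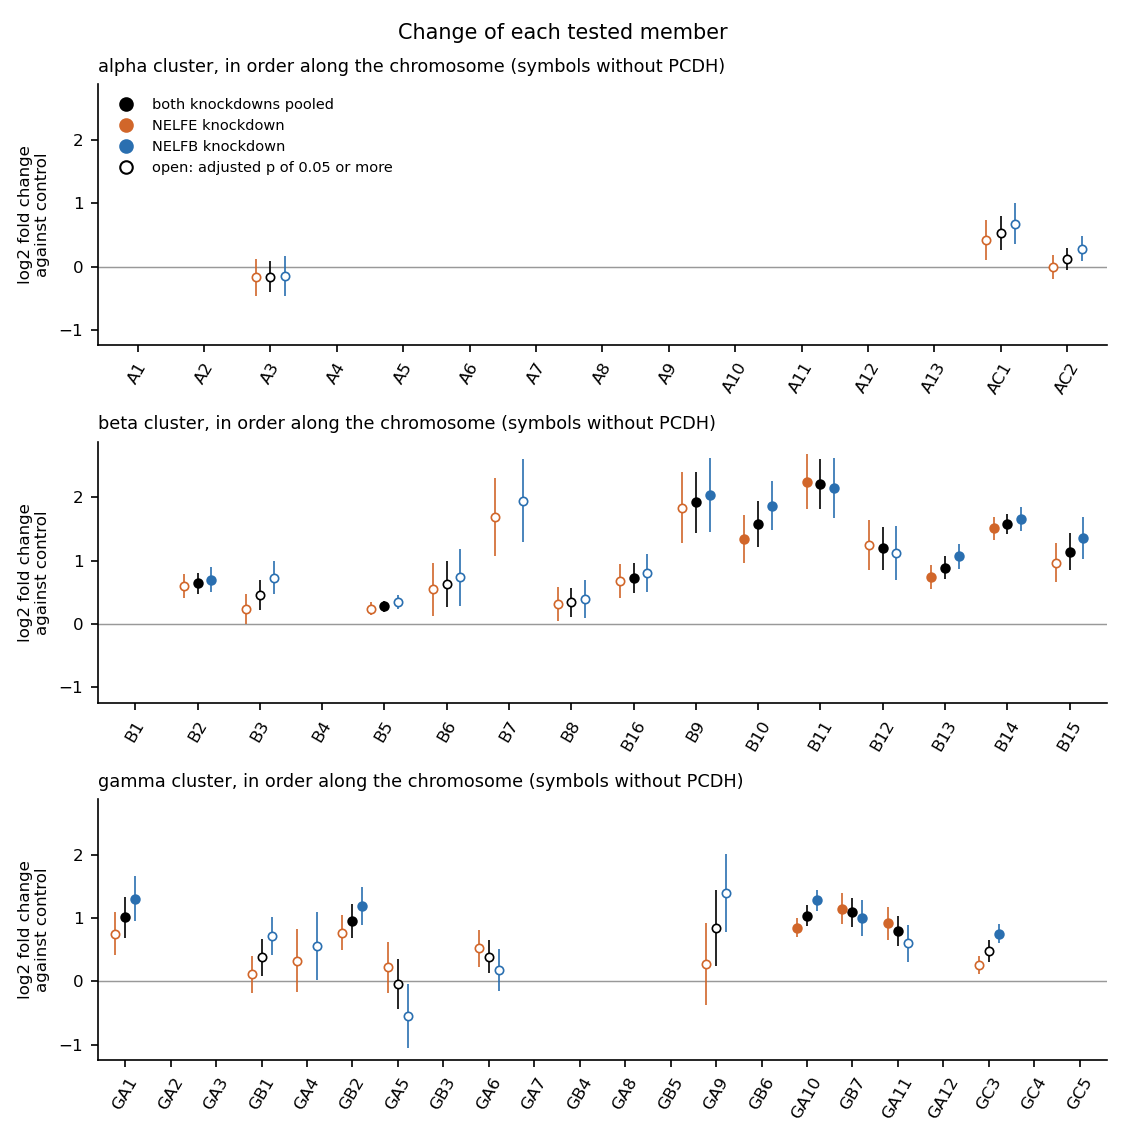
Log2 fold change against control with its standard error for each tested member, in chromosomal order, for both knockdowns pooled (black, middle), the NELFE knockdown (left) and the NELFB knockdown (right). Filled points have an adjusted p under 0.05, the largest filled points are at PCDHB9, PCDHB10, PCDHB11 and PCDHB14 and no filled point is below 0.

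The clearest change was that of PCDHB14, the neighbour of the last beta gene. It was at 2.64, 3.24 and 3.06 CPM in the control, 9.43, 9.42 and 6.65 CPM in the NELFE knockdown, and 9.42 and 9.48 CPM in the NELFB knockdown. The lowest knockdown library was 3.42 CPM above the highest control library. The pooled fold change was 2.98 (log2 1.58, standard error 0.16, Benjamini-Hochberg adjusted p = 0.000149 by the quasi-likelihood test of edgeR, as for all adjusted p below).

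PCDHB13, just upstream of it, was at 5.09, 4.34 and 4.03 CPM in the control, 8.56, 8.30 and 5.68 CPM in the NELFE knockdown, and 10.3 and 8.59 CPM in the NELFB knockdown (log2 fold change 0.89, standard error 0.18, adjusted p = 0.00556, edgeR). The groups did not overlap, although NELFE 3 came within 0.591 CPM of the control. PCDHB10 was at 0.761, 1.20 and 0.394 CPM in the control, 1.83, 2.80 and 1.35 CPM in the NELFE knockdown, and 3.07 and 2.69 CPM in the NELFB knockdown (1.58, standard error 0.36, adjusted p = 0.00861, edgeR). PCDHB11 had the largest log2 fold change of the 26 members tested in the pooled comparison, at 0.16, 0.310 and 0.175 CPM in the control, 1.45, 1.08 and 0.558 CPM in the NELFE knockdown, and 0.954 and 0.983 CPM in the NELFB knockdown (2.21, standard error 0.39, adjusted p = 0.00246, edgeR). Its control values rest on 4, 7 and 4 reads. In both genes, too, no knockdown library reached down to the control libraries.

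PCDHB9, PCDHB12 and PCDHB15, the remaining genes at the 3′ end of the cluster, were at a low level, each under 1 CPM in every control library. PCDHB9 was at 0.28, 0.177 and 0.0438 CPM in the control, 0.914, 0.602 and 0.326 CPM in the NELFE knockdown, and 0.830 and 0.598 CPM in the NELFB knockdown (1.92, adjusted p = 0.0144, edgeR). It rests on 1 to 7 reads in the control and 7 to 22 in the knockdowns. PCDHB12 was at 0.320, 0.355 and 0.394 CPM in the control, 0.997, 1.12 and 0.419 CPM in the NELFE knockdown, and 0.788 and 0.769 CPM in the NELFB knockdown (1.20, adjusted p = 0.0250, edgeR). PCDHB15 was at 0.721, 0.576 and 0.525 CPM in the control, 1.5, 1.33 and 0.744 CPM in the NELFE knockdown, and 1.70 and 1.45 CPM in the NELFB knockdown (1.14, adjusted p = 0.0145, edgeR). In PCDHB12 and PCDHB15, NELFE 3 was within 0.0248 and 0.0236 CPM of the highest control library. PCDHB12 was called in 3 and the other 2 in 6 of the 8 fits that left out 1 library.

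Upstream of PCDHB9, 3 genes were called and their changes were smaller. PCDHB2 was at 5.25, 5.10 and 4.29 CPM in the control, 8.35, 8.22 and 5.54 CPM in the NELFE knockdown, and 8.59 and 7.26 CPM in the NELFB knockdown (0.64, adjusted p = 0.0152, edgeR). PCDHB5, the most abundant member of all, was at 17.7, 22.2 and 21.3 CPM in the control, 24.1, 23.9 and 24.1 CPM in the NELFE knockdown, and 25.5 and 26.3 CPM in the NELFB knockdown. Its groups did not overlap, but the log2 fold change was 0.28 (95% interval 0.08 to 0.48, adjusted p = 0.0395, edgeR) and the call was made in only 2 of the 8 fits that left out 1 library. PCDHB16, which lies between PCDHB8 and PCDHB9, was at 1.16, 1.11 and 0.919 CPM in the control, 1.75, 2.24 and 1.12 CPM in the NELFE knockdown, and 1.91 and 1.79 CPM in the NELFB knockdown (0.73, adjusted p = 0.0443, edgeR). There NELFE 3 fell within the control range, and the call was made in 1 of the 8 fits. PCDHB3, PCDHB6 and PCDHB8 did not pass the test (log2 fold changes 0.46, 0.63 and 0.34). PCDHB7, left out by the filter, had 3, 3 and 1 reads in the control, 9, 11 and 3 in the NELFE knockdown, and 7 and 12 in the NELFB knockdown.

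Along the beta cluster, the log2 fold change was larger towards the 3′ end. In the pooled comparison, the 7 genes from PCDHB9 to PCDHB15 had log2 fold changes of 0.89 to 2.21, and the 6 tested genes from PCDHB2 to PCDHB16 had 0.28 to 0.73. This division was drawn after the values were seen, and it does not hold for PCDHB7, which the filter had left out of the pooled comparison. PCDHB9, PCDHB11 and PCDHB12 had at most 7, 7 and 9 reads in any control library and passed that filter through the knockdown libraries. The upper end of the range thus rests in part on genes admitted by their change. In the model of the 3 groups, PCDHB7 had log2 fold changes of 1.69 (95% interval 0.32 to 3.07) in the NELFE and 1.95 (95% interval 0.51 to 3.39) in the NELFB knockdown, neither of them called and both resting on 1 to 3 control reads. PCDHB7 was called higher in the pooled contrast of that model, with no filter on low counts (pooled and NELFB), without NELFE 3 (both knockdowns), without control 1 and NELFE 3 (pooled and both knockdowns), and with the replicate number as a block (both knockdowns). Over the 15 beta genes with reads, the Spearman rho of chromosomal order and unfiltered pooled log2 fold change was 0.59, and over the 13 tested genes it was 0.65. With 1 knockdown library at a time set against the control, rho over the 13 genes was between 0.59 and 0.71. The fold change also went with a low control level in CPM (rho of -0.64 over the 13 genes, both quantities using the same control libraries). The filter favours such a value, because a gene low in the control passed it only if it was higher in the knockdowns. Order and control level per kilobase had a rho of -0.13 over the 15 genes with reads. The measure and the genes differ from those of the -0.64, so these values do not separate position from control level. The share of 65-base windows of a gene that occur once in the genome, a measure of how well its reads can be placed, had a rho of -0.02 with the fold change. Over the 22 gamma genes, rho of order and fold change was 0.03. These genes share a locus and the same libraries, and the coefficients are descriptions.

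In the gamma cluster, the called genes were of the A and B types, which are intermingled along the cluster. PCDHGA10 was at 7.37, 9.66 and 7.84 CPM in the control, 16.5, 16 and 12.3 CPM in the NELFE knockdown, and 20.7 and 19.7 CPM in the NELFB knockdown. The lowest knockdown library was 2.62 CPM above the highest control library, and the fold change was 2.06 (log2 1.04, standard error 0.17, adjusted p = 0.00162, edgeR). Its neighbour PCDHGB7 was at 0.801, 0.842 and 0.525 CPM in the control, 1.83, 1.63 and 1.35 CPM in the NELFE knockdown, and 1.45 CPM in both NELFB libraries (1.09, standard error 0.23, adjusted p = 0.00610, edgeR). In both genes the groups were separate. PCDHGA11, next in order, was at 1.32, 1.33 and 1.14 CPM in the control, 2.70, 2.32 and 2.14 CPM in the NELFE knockdown, and 1.33 and 2.52 CPM in the NELFB knockdown (0.80, adjusted p = 0.0304, edgeR). The NELFB libraries disagreed there, NELFB 1 was at the level of the control, and the call was made in 2 of the 8 fits that left out 1 library.

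Further upstream, PCDHGB2 was at 1.12, 1.06 and 0.876 CPM in the control, 2.16, 1.85 and 1.21 CPM in the NELFE knockdown, and 2.78 and 1.88 CPM in the NELFB knockdown (0.95, adjusted p = 0.0219, edgeR). PCDHGA1, the first gene of the cluster, was at 0.521, 0.532 and 0.306 CPM in the control, 0.831, 0.774 and 0.698 CPM in the NELFE knockdown, and 1.41 and 0.854 CPM in the NELFB knockdown (1.01, adjusted p = 0.0393, edgeR). The groups did not overlap in either gene, yet PCDHGA1 was called in only 1 of the 8 fits that left out 1 library, against 6 for PCDHGB2. Just downstream of PCDHGB2, PCDHGA5 had a log2 fold change of -0.04 (95% interval -0.92 to 0.84), which leaves room for changes in either direction. PCDHGC3, whose protein is known to bind Axin1 and dampen Wnt signalling, was at 5.73, 7.05 and 5.60 CPM in the control, 7.98, 6.97 and 7.03 CPM in the NELFE knockdown, and 10.5 and 10.1 CPM in the NELFB knockdown. Pooled, it was near the threshold (0.48, edgeR adjusted p = 0.0600) and was called with DESeq2, in the pooled contrast of the 3-group model, with no filter on low counts, without NELFE 3, without control 1 and NELFE 3, and with the replicate number as a block. The NELFB knockdown alone gave a call (0.75, edgeR adjusted p = 0.00831).

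No alpha gene was called in the pooled comparison or in either knockdown. PCDHAC2 was at 5.29, 6.03 and 4.99 CPM in the control, 6.07, 6.11 and 4 CPM in the NELFE knockdown, and 6.22 and 7.01 CPM in the NELFB knockdown. Its pooled log2 fold change was 0.12 (95% interval -0.26 to 0.50, adjusted p = 0.655, edgeR), an interval that does not reach the change of PCDHGA10 or PCDHB14. The intervals of PCDHAC1 (0.53, from -0.07 to 1.13) and PCDHA3 (-0.16, from -0.69 to 0.38) were wider. PCDHA11 had 1 read in each control library, 5, 5 and 1 in the NELFE knockdown, and 11 and 3 in the NELFB knockdown, and was called higher only with no filter on low counts (pooled and NELFB) and, for NELFB, without NELFB 2. At this depth, differences in the other alpha genes were not detectable.

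Each knockdown was then set against the control in a model of the 3 groups, which tested 28 members. In the NELFE knockdown, 7 of the 53 members were called higher and 0 lower, with 7.92% of all genes called higher and 7.04% lower. These were PCDHB10, PCDHB11, PCDHB13, PCDHB14, PCDHGA10, PCDHGB7 and PCDHGA11. The largest log2 fold changes among them were 2.25 for PCDHB11 (adjusted p = 0.00925, edgeR), 1.51 for PCDHB14 (adjusted p = 0.000947, edgeR) and 1.35 for PCDHB10 (adjusted p = 0.0375, edgeR). PCDHB11, PCDHB14 and PCDHGA10 were called for NELFE in every fit that left out 1 library. The NELFE call of PCDHB10 was lost without NELFE 1, NELFE 2, NELFB 1, NELFB 2, control 1 or control 3. It was also lost with only the libraries compared. The call of PCDHGA11 was lost without NELFE 1, NELFE 2, control 1, control 2 or control 3. That of PCDHB13 was lost without NELFE 1, NELFE 2, control 2 or control 3. That of PCDHGB7 was lost without NELFE 1 or NELFE 2. Without NELFE 3 the count was 14, without NELFE 1 or NELFE 2 it was 3, and without control 3 it was 4. The share of all genes called in either direction, 15% with all libraries, was 18.6%, 5.91%, 6.55% and 10.9% in these fits. Without both NELFE 3 and control 1 the count was 15, with 17.6% of all genes called higher, and with no filter on low counts 11, with 5.07% called higher. With the replicate number as a block it was 13, with 28.3% of all genes called in either direction. PCDHB2, PCDHB7, PCDHB9, PCDHB12, PCDHB15 and PCDHGB2 were gained there.

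In the NELFB knockdown, 12 of the 53 members were called higher and 0 lower, with 10.6% of all genes called higher and 8.88% lower. PCDHB10, PCDHB11, PCDHB13, PCDHB14, PCDHGA10 and PCDHGB7 were called as in the NELFE knockdown, and PCDHB2, PCDHB9, PCDHB15, PCDHGA1, PCDHGB2 and PCDHGC3 were called in addition. Among fits that kept both NELFB libraries, the NELFB call of PCDHGB7 was lost with DESeq2 and with only the libraries compared. It was also lost without NELFE 2, control 2 or control 3, as were the NELFB calls of PCDHB2 and PCDHB9. Those of PCDHGA1 and PCDHGB2 were lost without control 2 or control 3, and that of PCDHB15 without control 2. The log2 fold change was 2.15 for PCDHB11 (adjusted p = 0.0122, edgeR), 1.66 for PCDHB14 (adjusted p = 0.000527, edgeR) and 1.28 for PCDHGA10 (adjusted p = 0.000861, edgeR). The count fell to 6 without control 2, to 7 without control 3, and to 2 and 7 with NELFB 2 or NELFB 1 as the lone NELFB library, assumed to vary like the other groups. The share of all genes called in either direction fell from 19.5% to 11.2%, 14.2%, 3.45% and 7.2% in these fits. Without control 1 and NELFE 3 it was 18, with 21.1% of all genes called higher, and with no filter 14, with 6.36% called higher. DESeq2 called 14 members higher pooled, 8 for NELFE and 10 for NELFB, against 14.2%, 8.91% and 10.3% of all genes. Both comparisons use the same control libraries.

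Compared directly, 0 of the 28 tested members were called different between the NELFE and NELFB knockdowns (edgeR), against 0.315% of all genes (0.237% higher and 0.0771% lower in the NELFE knockdown). The log2 difference of NELFE from NELFB was below 0 for most members, with 6 of 28 above 0 and a median of -0.22 (-0.41 for the 11 gamma genes), against a median of -0.01 over all genes. NELFE 3, which stood apart from its group, was the lowest NELFE library for 22 of these 28 members. Without NELFE 3, too, 0 members were called different. Before adjustment, 2 of the 28 members had a p under 0.05, as had 863 of the 16852 genes tested, a like share. These were PCDHGC3, with a log2 difference of NELFE from NELFB of -0.50 (95% interval -0.83 to -0.16), and PCDHGA10, with -0.43 (95% interval -0.78 to -0.08). DESeq2 also called 0. For PCDHB14 the interval was -0.55 to 0.25, so that a difference of modest size remained possible.

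Genes beside and between the clusters were set against the members. Of 13 tested neighbours (from TMCO6 to ARAP3), 1 was called higher in the pooled comparison and 0 lower, against 13.3% and 12.7% of all genes, with a median log2 fold change of -0.03. The called gene was TAF7, an intronless gene between the beta and gamma clusters that encodes a subunit of the general transcription factor TFIID, at 147 ± 9.85 CPM in the control, 171 ± 7.14 in the NELFE and 171 ± 13.1 in the NELFB knockdown (0.22, adjusted p = 0.0364, edgeR). HDAC3, a histone deacetylase encoded beyond the gamma cluster, had a log2 fold change of -0.05. SLC25A2, beside TAF7, had at most 1 read in any library, and DND1 had none. Of 4 pseudogenes inside the clusters, PCDHB18P had enough reads to be tested and was called, at 0.529 ± 0.119 CPM in the control, 1.06 ± 0.272 in the NELFE and 1.14 ± 0.143 in the NELFB knockdown (1.05, adjusted p = 0.0146, edgeR).

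Protocadherins outside the 3 clusters also contained called genes. Of 12 on the list, 8 were tested, 5 were called higher and 0 lower, and the median log2 fold change was 0.77, with 13.3% of all genes called higher. They were PCDH17 (1.30, adjusted p = 0.00776, edgeR), PCDH11X (1.22, adjusted p = 0.00519), PCDH7 (1.18, adjusted p = 0.00381), PCDH19 (1.03, adjusted p = 0.00103) and PCDH18 (0.51, adjusted p = 0.0120). PCDH19, a neuronal adhesion protein linked to an X-linked epilepsy, was at 6.05 ± 0.634 CPM in the control, 12 ± 2.38 in the NELFE and 12.8 ± 1.97 in the NELFB knockdown. PCDH18 was the most abundant of the list, at 148 ± 23.5 CPM in the control, 194 ± 21.6 in the NELFE and 236 ± 17.9 in the NELFB knockdown. The other 3 tested genes were not called, with log2 fold changes of -0.04 for PCDH9 (23.3 ± 4.11 CPM in the control), -0.19 for PCDH1 and -0.41 for PCDH12. PCDH15 had no read in the control or NELFE libraries. Of 14 other cadherins, 5 were tested. N-cadherin (CDH2) was called higher (0.61, adjusted p = 0.00214, edgeR) and CDH10 lower (-0.87, adjusted p = 0.00127, edgeR), and CDH11 had no read in any library.

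Known regulators of the clusters were described by their own lists. Of 14 genes for CTCF, cohesin and their cofactors, 0 were called higher and 2 lower, a share close to the 12.7% of all genes called lower. These were the cohesin subunits SMC1A, at 704 ± 28.2 CPM in the control, 556 ± 32.3 in the NELFE and 578 ± 21.8 in the NELFB knockdown (log2 fold change -0.32, adjusted p = 0.00449, edgeR), and SMC3 (-0.26, adjusted p = 0.0289, edgeR). Of 18 genes of DNA methylation and heterochromatin, 2 were called higher and 6 lower, against 13.3% and 12.7% of all genes, with a median of -0.14. UHRF1, which guides the maintenance DNA methyltransferase, was lower (-0.59, adjusted p = 0.00209, edgeR), at 117 ± 11.2 CPM in the control, 81.4 ± 5.13 in the NELFE and 72.0 ± 13.7 in the NELFB knockdown. ZNF274, a zinc finger protein that binds protocadherin genes (-0.42, adjusted p = 0.00537, edgeR), its corepressor TRIM28 (-0.36, adjusted p = 0.00844, edgeR) and the methyltransferases DNMT1 (-0.28), DNMT3B (-0.26) and EHMT2 (-0.24) were also lower. WIZ (0.28) and the neuronal gene repressor REST (0.27) were higher. Whether these differences had a part in those of the protocadherins was not tested.

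Genes for proteins that act on protocadherins at the membrane were counted in the same way, against 26% of all genes called in either direction. Of 7 for proteases and their subunits, 2 were called higher and 1 lower: NCSTN, a subunit of gamma-secretase (0.45, adjusted p = 0.00255, edgeR), ADAM10, which sheds the extracellular part (0.25), and APH1B (-0.30). Of 16 intracellular partners, the WAVE complex subunits BRK1 (0.31) and ABI1 (0.25) were called higher and AXIN1 (-0.23) lower.

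Since the clusters are best known from neurons, neuron markers were counted as well. Of 14, 8 were tested and 3 were called higher, with 13.3% of all genes called higher: the migration protein DCX (3.05, adjusted p = 0.00225, edgeR), MAP2 (1.54, adjusted p = 0.00795, edgeR) and GAP43 (0.80, adjusted p = 0.0161, edgeR). DCX had 14, 8 and 3 reads in the control, 82, 70 and 24 in the NELFE knockdown, and 116 and 56 in the NELFB knockdown. It passed the filter on low counts through the knockdown libraries, so the tally of 3 called in 8 tested rests in part on a gene admitted by its change. The list summed to 39.0, 50.2 and 41.9 CPM in the control, 84.2, 83.1 and 57.7 CPM in the NELFE knockdown, and 74.6 and 68.5 CPM in the NELFB knockdown, with MAP2 the most abundant over all libraries and INA at a like level in the control (14.6 and 14.7 CPM). NELFE 3 was again the lowest knockdown library. The other 5 tested markers were not called, and the median log2 fold change of the list was 0.01. Of these, INA was at 14.7 ± 4.09 CPM, SYP at 7.16 ± 1.27 and TUBB3 at 2.61 ± 0.616 CPM in the control (SD, n = 3), and RBFOX3 had 11 to 20 reads in each library. STMN2 had at most 3 reads in any library, ELAVL3 at most 2 and ELAVL4 none. Of 12 blood cell markers, set here because the parent line KBM-7 came from blood, 2 were tested and 1 was called. This was CD34, with 3, 3 and 1 reads in the control, 16, 6 and 28 in the NELFE knockdown, and 67 and 21 in the NELFB knockdown. With so few control reads, CD34 passed the filter on low counts through the knockdown libraries, so nothing is drawn from this call. The blood list summed to 8.95 to 14.4 CPM per library, most of it KIT, and the leukocyte marker PTPRC had at most 2 reads in any library. MPO, CD3E and HBG1 had none. The part of these markers in the protocadherin values was not tested.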

How the data were processed

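Gene counts were deposited as raw counts by the authors, who had checked reads with FastQC 0.11.6, aligned the 65-base single-end reads to GRCh38 with STAR 2.5.4a, and counted them on Gencode v24 genes without strand while mapping. No normalization had been applied. STAR counts uniquely aligned reads that overlap exactly 1 gene, so reads on shared exons or between near-identical copies are missing. Symbols and exons were taken from GENCODE v44, which named 97.4% of the 33854 detected genes, holding 99.9% of all counts. A gene's own exon bases are those that no other listed gene overlaps, and at least 100 were required for a level per kilobase (1000 bases). These lengths come from v44 and the counts from v24, so they need not match for every gene. PCDHA1, with 7 own bases, had up to 5 reads in a library.

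Tests used the quasi-likelihood method of edgeR 4.0.16 under R 4.3.3, with its filterByExpr filter, TMM factors and robust dispersions. P-values were adjusted over all genes after Benjamini and Hochberg. Libraries were compared as 5 knockdown against 3 control libraries and in a model of the 3 groups. The study's pooling was followed. Standard errors and 95% intervals derive from the quasi-likelihood test, and CPM values are TMM-normalized. Alternatives were DESeq2 1.42.0 (the tool the authors used), its size factors in edgeR, other filters, the replicate number as a block, the libraries of 1 comparison only, each library left out, and other lengths and measures of position. Lengths from 65-base windows that occur once in the genome, and the fit without control 1 and NELFE 3, were chosen after seeing the data. The fits were tested on simulated data. The floor of 3 reads covers counting error only. The study describes the NELFE and NELFB libraries as independent biological replicates, and per the file headers the control libraries carry the same replicate prefix (BR). How the control cultures were kept apart is not stated, and p-values measure the spread between these libraries.

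The members, gene lists and tests were chosen with earlier results of these data known. Named were the guide RNA targets, called members, the most abundant member of each cluster, and up to 4 called genes of each list with the largest changes, and other genes named were chosen after their values were seen. Promoters come from RefSeq (GRCh38.p14) and were not at hand for PCDHA3, PCDHA13, PCDHB6, PCDHB11, PCDHGA12 and PCDHGC5.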

Additional observations from a re-analysis of the deposited data

How the results depend on the processing

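No member's fold change that was called changed direction under any alternative, and 0 members were called lower in any of them. For the pooled comparison the number of members called higher was 15, and between 10 and 16 with other tools, filters and models. The 10 came with at least 10 reads in every library, which tested 18 members and called 27.1% of all genes in either direction. With no filter it was 16 of 51 members, with 12.6% of all genes called. The number was 17 without control 1 and NELFE 3, with 39.9% of all genes called. With 1 library left out it was between 6 (without control replicate 3) and 16, with 16% to 31.4% of all genes called. For the NELFE knockdown it was 7, 11 with no filter on low counts, 15 without control 1 and NELFE 3, and 3 to 14 with 1 library left out. For the NELFB knockdown it was 12, and 2 to 16 with 1 library left out. The replicate numbers were treated as names, since not every same-numbered pair had a correlation of deviations over 0.1. Between control and NELFE, same-numbered pairs gave 0.275, 0.054 and 0.451 and the others -0.377 to 0.231, and each control library went best with its own number, while NELFE 2 went best with control 1. Between control and NELFB, same-numbered pairs gave -0.021 and -0.013, and between NELFE and NELFB 0.103 and 0.199. With the number as a replicate block the counts were 16, 13 and 14, and the share of all genes called in either direction was 34.4%, 28.3% and 28.5%, against 26%, 15% and 19.5%. The cause of these shifts was not tested. Leaving out the member with the highest CPM (PCDHAC2, PCDHB5 and PCDHGA10) gave log2 ratios of the summed level of 0.46 (alpha), 0.99 (beta) and 0.60 (gamma), against 0.22, 0.66 and 0.79. With all annotated exon bases as length, PCDHAC2, PCDHB5 and PCDHGC3 were at 0.882, 5.99 and 1.13 CPM per kilobase in the control, and PCDHGC3 was then no longer the highest gamma gene. The rho of order and fold change was 0.65 for beta among members that passed the filter, and for gamma 0.16 among these and 0.21 without C-type members. Control libraries with 1 to 13 reads limit the fold changes of PCDHB9, PCDHB11, PCDHB12 and PCDHGA1.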
